A study of Mus musculus with 4 samples.

Results

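Toll-like receptors are membrane proteins with which innate immune cells sense microbes, and the 9 mouse receptor genes Tlr1, Tlr2, Tlr3, Tlr4, Tlr6, Tlr7, Tlr8, Tlr9 and Tlr13 are described here together with Cd14, the coreceptor that hands bacterial lipopolysaccharide (LPS) to the Tlr4 complex. The members were chosen by symbol. Every probe set annotated to exactly 1 of these symbols was taken, which gave 16 probe sets for the 10 genes, out of 45037 probe sets and 18193 genes on the array. RNA came from 4 cultures of C57/BL6 mouse dendritic cells (DCs). They had been cultured from marrow in the growth factor GM-CSF and then selected for CD11c, an integrin of DCs, and each culture was hybridised to 1 array. The groups were LXR-DKO LPS, LXR-DKO control, WT LPS and WT control. LXR-DKO cells lack both liver X receptors, LXRα and LXRβ, nuclear receptors for oxysterols that act on genes of lipid metabolism, and WT cells carry both. Control cells of either genotype were kept for 24 h with GM-CSF at 10 ng/mL, and LPS cells received the same GM-CSF plus LPS at 100 ng/mL for 24 h. With 1 array per group there is no replicate, no p-value was computed, and precision is limited by the number of arrays. How many mice gave each culture is not given in the sources used here.

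Toll-like receptors pair a leucine-rich ectodomain with a cytoplasmic TIR domain, which recruits the adaptors MyD88 or TRIF and leads to NF-kappaB, MAP kinase and interferon-regulatory-factor signalling. Tlr1, Tlr2, Tlr4 and Tlr6 act at the cell surface on bacterial lipids, while Tlr3, Tlr7, Tlr8, Tlr9 and Tlr13 act in endosomes on nucleic acids and depend on the transporter Unc93b1 to get there. LPS, the stimulus of this study, is the ligand of Tlr4 with its partner Ly96 (MD-2), and LPS is also known to change the expression of other Toll-like receptor genes in myeloid cells.

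The deposited values are MAS5 signals, a linear brightness summary per probe set. A floor was set at the median of all non-control signals, 28.9, and lower values were raised to it, which makes any ratio that includes one a lower limit. Each gene was represented by its probe set with the highest mean signal, and by that probe set all 10 members reached the floor on every array. Log2 ratios were taken as LPS over control and as LXR-DKO over WT, and a gene was counted when it differed at least 2-fold. The only error available here is how far log2 ratios scatter among a gene's own probe sets, pooled over all genes with several. Its SD was 0.42 for LPS over control in LXR-DKO, 0.29 for LPS over control in WT, 0.54 for LXR-DKO over WT with LPS and 0.45 without LPS. It covers error within the arrays and not the variation between cultures.

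The trimmed mean signal was 200.0 on each array, and the share of probe sets reaching the floor ran from 47.8% to 52.6%. The targeted gene Nr1h3, which encodes LXRα, had signals of 27 in LXR-DKO LPS, 40.4 in LXR-DKO control, 54.5 in WT LPS and 108.6 in WT control. Whether its probe set lies inside the deletion is not known here, so these values do not check it. The CD11c gene Itgax was bright in every culture, with signals of 3848.1 in LXR-DKO LPS, 4404.5 in LXR-DKO control, 6093 in WT LPS and 5012.2 in WT control. The DC transcription factor gene Zbtb46 had 393.3 and 305.9 in LXR-DKO LPS and control, against 29 and 39.4 in WT LPS and control, so that the WT cultures carried little of this DC marker.

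Promoter windows from RefSeq, build GRCm38.p6, were found for 7 of the 9 receptor genes, as 9 windows of 250 bases before an annotated start. Windows of Tlr4, Tlr7 and Cd14 were not analysed here. Windows were searched on both strands for the NF-kappaB consensus, for GAAA repeated in the same direction with 2 bases between, the core of the interferon-stimulated response element, for GAGGAA, a core preferred by the myeloid factor PU.1, for TGANTCA, the AP-1 site, and for the LXR element as a direct repeat of AGGTCA with a spacer of 4 bases. Of 32851 windows of the same length, 7.25% held the NF-kappaB consensus, 2.98% the interferon element, 23.3% the PU.1 core, 6.75% the AP-1 site and 0.015% the LXR repeat. The windows of Tlr2, Tlr3 and Tlr13 are shown as examples of genes that differ in the 2 comparisons below. The signals of Tlr2 and Tlr3 were higher with LPS in both genotypes. That of Tlr13 was 2.91-fold or more lower in LXR-DKO and stayed within the probe-set spread for LPS in both genotypes. Tlr1 was also higher with LPS in both genotypes, and Tlr6 was higher beyond the probe-set spread in WT only. The windows of Tlr1 and Tlr6 held no NF-kappaB consensus. The wording of that consensus was chosen after the promoters had been seen. A link between these letters and the LPS ratios was not tested. Capitals mark the NF-kappaB consensus in Tlr2, where a pair of matches overlap and 1 of them reads the same on both strands, the same consensus in Tlr3, and the PU.1 core in Tlr13. The Tlr2 window lies on the minus strand at chr3:83841609-83841858, that of Tlr3 on the minus strand at chr8:45410381-45410630 and that of Tlr13 on the plus strand at chrX:106143025-106143274.
Tlr2: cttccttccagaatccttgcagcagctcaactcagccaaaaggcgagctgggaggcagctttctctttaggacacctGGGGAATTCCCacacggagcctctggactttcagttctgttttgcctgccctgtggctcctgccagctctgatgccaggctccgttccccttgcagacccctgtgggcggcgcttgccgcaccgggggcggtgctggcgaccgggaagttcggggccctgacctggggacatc
Tlr3: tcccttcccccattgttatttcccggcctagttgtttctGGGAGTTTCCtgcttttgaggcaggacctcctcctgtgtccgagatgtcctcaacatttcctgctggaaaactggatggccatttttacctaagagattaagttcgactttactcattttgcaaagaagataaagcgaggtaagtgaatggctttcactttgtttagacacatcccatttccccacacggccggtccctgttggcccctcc
Tlr13: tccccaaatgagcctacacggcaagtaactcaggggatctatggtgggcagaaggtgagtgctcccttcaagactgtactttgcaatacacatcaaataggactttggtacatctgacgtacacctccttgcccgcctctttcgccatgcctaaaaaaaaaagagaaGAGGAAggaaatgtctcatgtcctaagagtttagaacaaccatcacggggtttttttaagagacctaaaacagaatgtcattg
None of the 9 windows held the LXR repeat. Of the windows not shown, 1 of the 2 of Tlr1 and the window of Tlr8 held the PU.1 core, 1 of the 2 of Tlr6 held a pair of overlapping interferon elements, and the window of Tlr9 held the PU.1 core and an AP-1 site. A match is a description of the letters and not a shown binding site, and no match says only that these letters are not in this window.

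Across the whole family, most receptor genes were lower in LXR-DKO cells than in WT cells, and most were somewhat higher with LPS. With LPS, 4 of the 10 members were at least 2-fold lower in LXR-DKO and 0 were higher. Over all 12014 genes measured in that comparison, 8.76% were at least 2-fold lower and 17.8% higher. Without LPS, 4 of 10 were lower and 0 higher, against 9.28% lower and 12.7% higher of 11728 genes. The median log2 ratio of the members was -0.89 with LPS and -0.89 without LPS, and the median over all measured genes was 0.15 and 0.05. Tlr6, Tlr7 and Tlr13 were past 2-fold in both conditions, joined by Tlr4 with LPS and by Tlr1 without LPS. The split of all genes depends on the scaling. With LPS, 2141 genes were higher and 1053 lower as deposited, 1544 and 1726 after scaling to the same 75th percentile, and 3100 and 626 after scaling to the hybridisation controls. Without LPS the same counts were 1487 and 1088, 1134 and 1429, and 2075 and 778. Under these scalings the members at least 2-fold lower numbered 6 and 3 with LPS, and 6 and 4 without LPS.

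**Figure D1:**
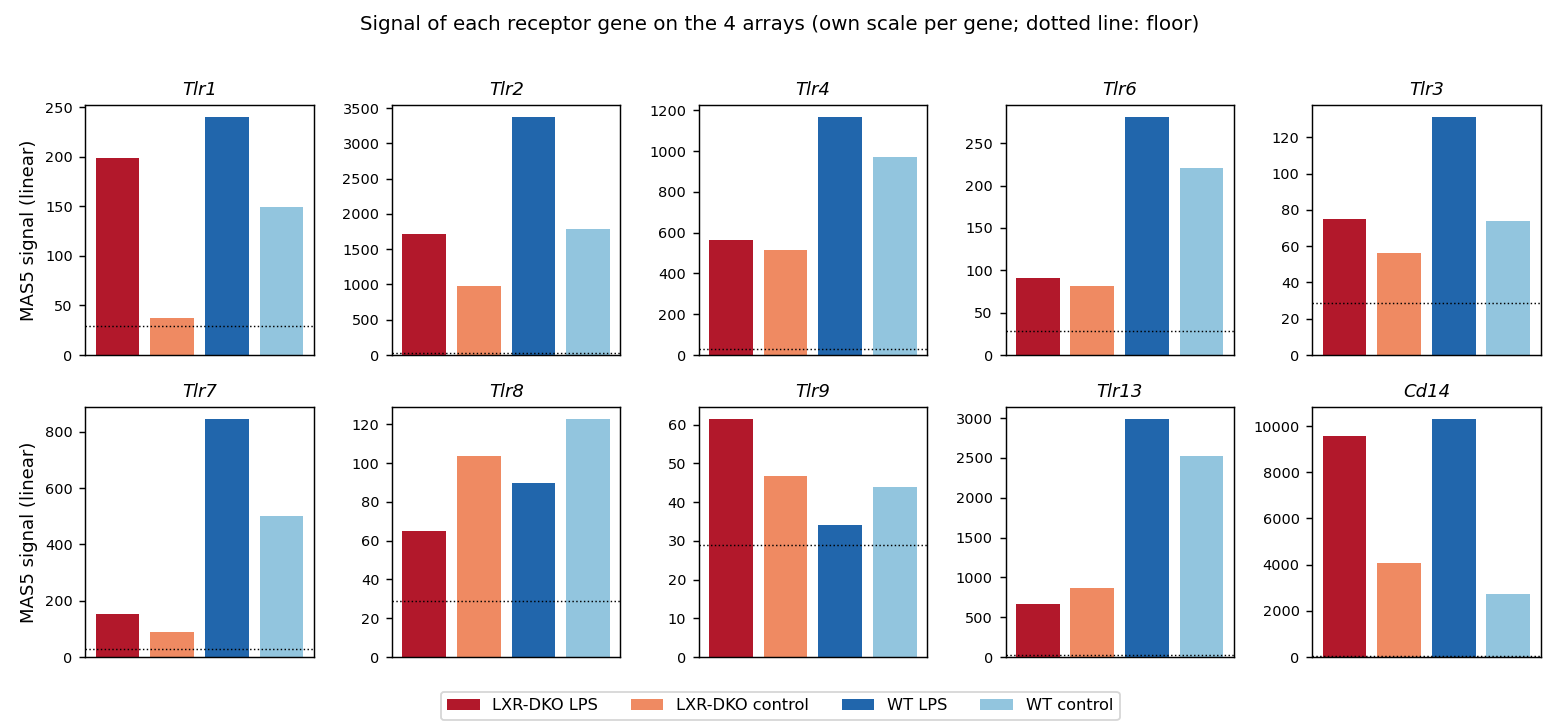
MAS5 signal (linear, bars from 0, each gene on its own scale) of the 10 members on the 4 arrays, 1 array per group, with the floor of 28.9 as a dotted line. The blue WT bars stand above both red LXR-DKO bars for Tlr4, Tlr6, Tlr7 and Tlr13, while Cd14 follows LPS in both genotypes.

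Among the surface receptors, Tlr2 recognises bacterial lipoproteins as a heterodimer with Tlr1 or Tlr6. Tlr2 had signals of 1720.1 in LXR-DKO LPS, 981.5 in LXR-DKO control, 3369.4 in WT LPS and 1783.7 in WT control. Both genotypes were brighter with LPS, and each LXR-DKO array was dimmer than its WT counterpart. Relative to control, LPS cells were 1.75-fold higher in LXR-DKO and 1.89-fold higher in WT. Relative to WT, LXR-DKO cells were 1.96-fold lower with LPS and 1.82-fold lower without LPS, in each case just under the 2-fold line. The LXR-DKO LPS array and the WT control array lay only 0.05 apart on the log2 scale, within the probe-set spread.

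Tlr6, the partner of Tlr2 for diacylated lipopeptides, differed between the genotypes far more than with LPS. Its signals were 90.6 in LXR-DKO LPS, 81.5 in LXR-DKO control, 280.4 in WT LPS and 220.4 in WT control. Both LXR-DKO arrays lay below both WT arrays. LXR-DKO was 3.09-fold lower with LPS and 2.70-fold lower without LPS, at log2 ratios of -1.63 and -1.44. With the floor at the 75th percentile of all signals, 177.4, which lies above both LXR-DKO values, these became lower limits of -0.66 and -0.31 and no longer passed 2-fold. The log2 ratio of LPS over control was 0.15 in LXR-DKO, inside the probe-set spread of 0.42, and 0.35 in WT, slightly outside the spread of 0.29.

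Tlr1, the partner of Tlr2 for triacylated lipopeptides, had the largest LPS ratio of any member. Its signals were 199.2 in LXR-DKO LPS, 37.6 in LXR-DKO control, 239.8 in WT LPS and 149.7 in WT control. The LXR-DKO control array stood apart, close to the floor, and the other 3 arrays lay within 0.68 of each other on the log2 scale. LPS cells were 5.30-fold higher in LXR-DKO and 1.60-fold higher in WT. LXR-DKO was therefore 3.98-fold lower than WT without LPS, at a log2 ratio of -1.99, and -0.27 with LPS lay within the spread of 0.54. The log2 LPS response was 1.73 larger in LXR-DKO than in WT, and 7.61% of all 12478 genes had a response at least 1 log2 unit larger in LXR-DKO. This rests on the 1 dim LXR-DKO control value: with the floor at 177.4 the difference became -0.27.

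Tlr4 is the signalling receptor for LPS itself. Its signals were 563 in LXR-DKO LPS, 515.1 in LXR-DKO control, 1165.1 in WT LPS and 971 in WT control. Both LXR-DKO arrays were dimmer than both WT arrays. By this probe set, LPS moved neither genotype beyond the probe-set spread, with log2 ratios of 0.13 in LXR-DKO and 0.26 in WT. Other probe sets of Tlr4 did pass that spread, as given below. LXR-DKO was 2.07-fold lower with LPS and 1.89-fold lower without LPS. The first of these was 2-fold or more under 8 of 9 alternative settings, and -0.73 on the log2 scale after scaling to the hybridisation controls.

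Tlr4 has the most probe sets of any member, and these gave the genotype difference in the same direction. Of its 4 probe sets, 1 was below the floor on every array. The other 2 besides the one used gave log2 ratios of LXR-DKO over WT of -0.77 and -1.67 with LPS and of -0.73 and -0.82 without LPS. They differed on LPS in LXR-DKO, where 1 stood at 0.43 and the other at -0.35, against 0.48 and 0.51 in WT. Both WT ratios were outside the spread of 0.29, and 0.43 was slightly outside that of 0.42. For Tlr4, the direction of the genotype difference was thus shared by all 3 probe sets above the floor, and the direction of the LPS response in LXR-DKO was not.

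**Figure D2:**
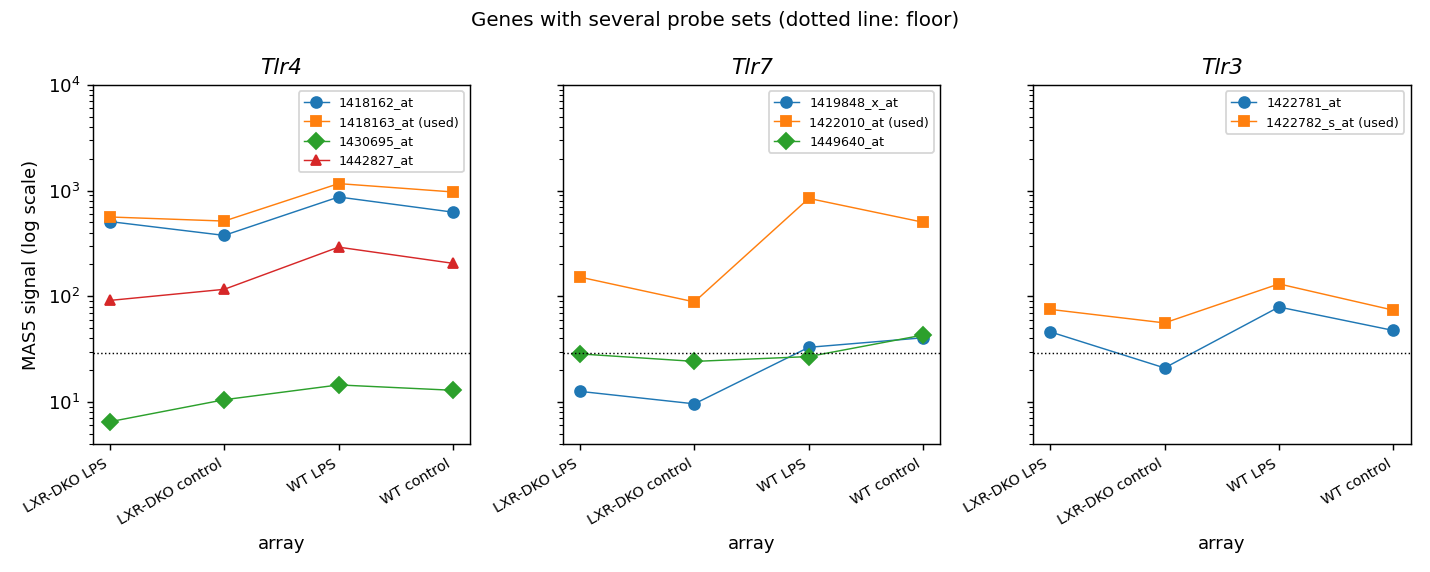
MAS5 signal on a log scale for every probe set of the 3 members with more than 1, on the 4 arrays, with the floor as a dotted line and the probe set used marked. The 3 Tlr4 probe sets above the floor are lower in LXR-DKO than in WT, while the other 2 probe sets of Tlr7 lie near or under the floor.

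The coreceptor gene Cd14, by contrast, followed LPS more than the genotype. Its signals were 9570.3 in LXR-DKO LPS, 4081.6 in LXR-DKO control, 10288.6 in WT LPS and 2727.4 in WT control. Both LPS arrays were brighter than both control arrays, by 2.34-fold in LXR-DKO and 3.77-fold in WT, and both ratios stayed past 2-fold under all 9 alternatives. Cd14 was the only member at least 2-fold higher with LPS in both genotypes by the settings as reported. Between the genotypes its log2 ratio was -0.10 with LPS, which is within the spread, and 0.58 without LPS, which is outside it. Its log2 response to LPS in LXR-DKO minus that in WT was -0.69.

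Among the endosomal receptors, Tlr7, which senses single-stranded RNA, had the largest genotype difference of the family. Its signals were 151.9 in LXR-DKO LPS, 88.5 in LXR-DKO control, 844.1 in WT LPS and 501.8 in WT control. Both WT arrays were several-fold brighter than both LXR-DKO arrays. LXR-DKO was 5.56-fold lower with LPS and 5.67-fold lower without LPS, and 1.02% and 1.46% of all measured genes had lower ratios in these comparisons. LPS cells were 1.72-fold higher in LXR-DKO and 1.68-fold higher in WT, so that the log2 responses differed by only 0.03. The other 2 probe sets of Tlr7 were below the floor on both LXR-DKO arrays and reached at most 43 in WT, which leaves their log2 ratios without LPS at lower limits of -0.49 and -0.57. Their log2 ratios of LPS over control in WT were -0.30 and -0.57, opposite in sign to the probe set used, and the second is a limit because its WT LPS signal of 26.9 is under the floor.

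Tlr13, a sensor of bacterial ribosomal RNA that mice have and humans lack, behaved much like Tlr6 in these arrays. Its signals were 671.6 in LXR-DKO LPS, 866.9 in LXR-DKO control, 2983.4 in WT LPS and 2522.3 in WT control. Both LXR-DKO arrays lay far below both WT arrays. LXR-DKO was 4.44-fold lower with LPS and 2.91-fold lower without LPS, and each was at least 2-fold under all 9 alternatives. The log2 ratio of LPS over control was -0.37 in LXR-DKO and 0.24 in WT, each within the probe-set spread.

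Tlr3, the receptor for double-stranded RNA, was modestly higher with LPS. Its signals were 75.2 in LXR-DKO LPS, 56 in LXR-DKO control, 131 in WT LPS and 73.9 in WT control. The WT LPS array was the brightest, and the other 3 lay close together. LPS cells were 1.34-fold higher in LXR-DKO and 1.77-fold higher in WT, and LXR-DKO was 1.74-fold lower with LPS. The probe set used carries a suffix for targets shared between transcripts. The other probe set gave log2 ratios of 0.67 in LXR-DKO and 0.74 in WT for LPS, and of -0.78 with LPS and -0.72 without LPS for LXR-DKO over WT. Its LXR-DKO control signal of 21 is under the floor, so 0.67 and -0.72 are lower limits on their size.

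Tlr8 and Tlr9 stayed within 2-fold in every comparison of the values as deposited. Tlr8, which senses RNA and is encoded next to Tlr7 on the X chromosome, had signals of 64.9 in LXR-DKO LPS, 103.9 in LXR-DKO control, 89.6 in WT LPS and 122.6 in WT control. It was the only member lower with LPS in both genotypes, by log2 ratios of -0.68 in LXR-DKO and -0.45 in WT, and its genotype ratios of -0.47 and -0.24 lay within the spread. Tlr9, the receptor for unmethylated CpG DNA, had signals of 61.4 in LXR-DKO LPS, 46.8 in LXR-DKO control, 34.1 in WT LPS and 44 in WT control. As deposited it was the only member higher in LXR-DKO with LPS, at a log2 ratio of 0.85 on signals close to the floor, and its ratio without LPS of 0.09 changed sign under 75th percentile scaling and after quantile normalization.

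**Figure D3:**
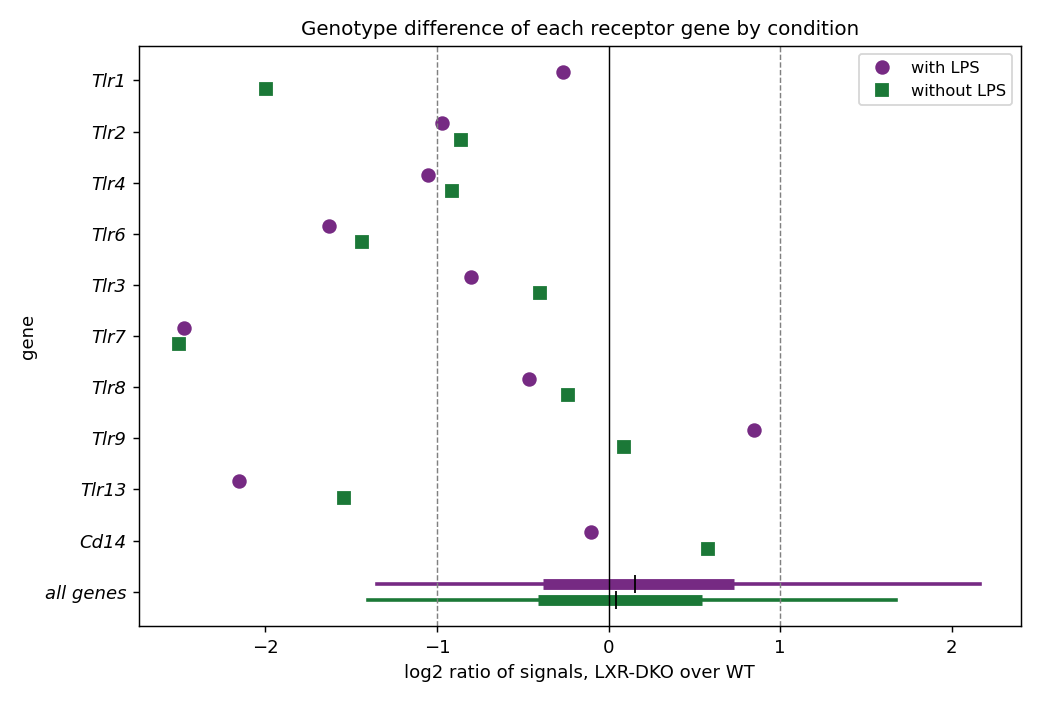
Log2 ratio of LXR-DKO over WT for each member, with LPS (circles) and without LPS (squares), with dashed lines at 2-fold. The bottom row gives the median, the middle 50% (thick) and the middle 90% (thin) of all measured genes, and Tlr7, Tlr13 and Tlr6 lie left of the thin line in both conditions.

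With LPS over control, few members passed 2-fold. In LXR-DKO, 2 of 10 were higher, Tlr1 and Cd14, and 0 lower, against 6.23% higher and 1.82% lower of 11793 genes. In WT, 1 of 10 was higher, Cd14, and 0 lower, against 2.93% higher and 4.79% lower of 11449 genes. The members' median log2 ratio was 0.41 in LXR-DKO and 0.51 in WT, and that of all measured genes 0.02 and -0.05. In each genotype 8 of 10 members lay above 0, and the number was 8 of 10 under each scaling alternative too. The 2 below 0 were Tlr8 and Tlr13 in LXR-DKO, and Tlr8 and Tlr9 in WT. Among all genes in WT, 336 were higher and 548 lower as deposited, 445 and 440 under 75th percentile scaling, and 277 and 667 under hybridisation control scaling. By the difference of the log2 responses, LXR-DKO minus WT, the members' median was -0.16 against 0.08 over all genes. Of the 10, 1 was at least 2-fold above 0, Tlr1, and 0 at least 2-fold below. The shares of all genes were 7.61% above and 2.07% below, so the upward count lies near the share of all genes. Over all genes the responses differed upward in 949 and downward in 258 as deposited, and in 802 and 370 after quantile normalization.

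**Figure D4:**
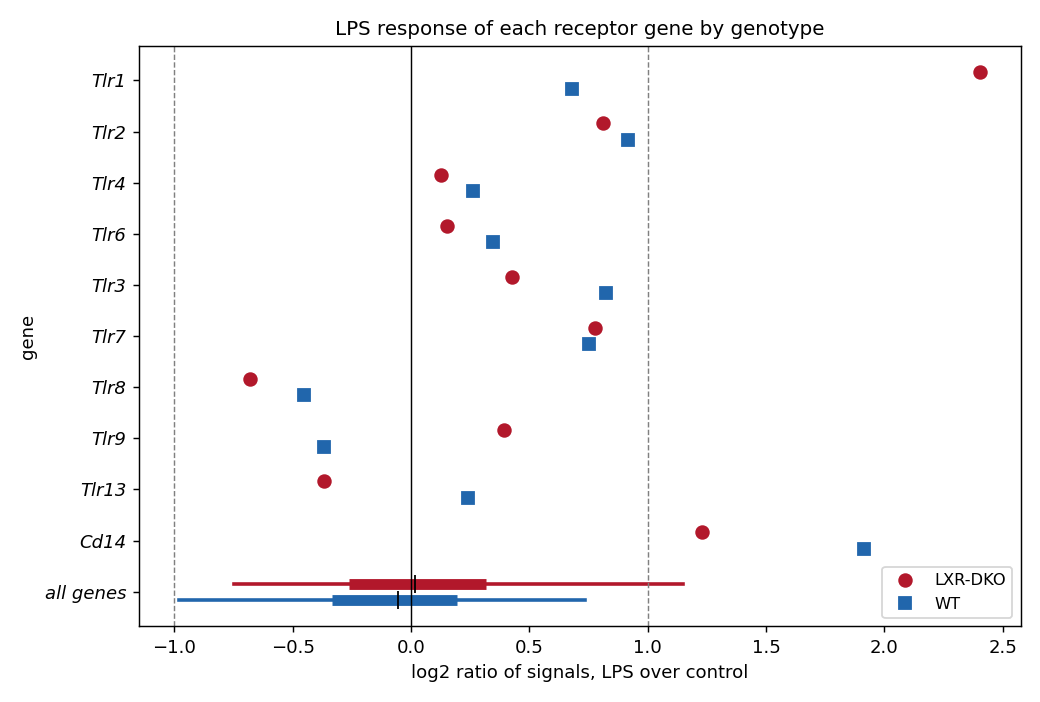
Log2 ratio of LPS over control for each member in LXR-DKO (circles) and WT (squares), with dashed lines at 2-fold. The bottom row gives the median, the middle 50% (thick) and the middle 90% (thin) of all measured genes, and Tlr1 in LXR-DKO and Cd14 in WT lie farthest to the right.

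The patterns over the 4 arrays were compared by the largest difference between log2 signals centred on each gene's mean, which is a description over 4 points that share their arrays. Tlr4 and Tlr6 were each other's nearest member at 0.32, and Tlr2 and Tlr3 at 0.35. Tlr13 was nearest to Tlr6 at 0.42. The nearest members of Tlr1, Tlr9 and Cd14 were 0.91 or more away. Among 9622 other genes that reached the floor on every array, the nearest to Tlr4 were Hspa9 at 0.02, Wdr20 at 0.03 and 1110002L01Rik at 0.04. The nearest to Cd14 were Parp14 at 0.09, Rnf213 at 0.15 and Zc3h12a at 0.17.

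Genes that help these receptors included members higher and members lower in LXR-DKO. Of 15 accessory and chaperone genes on the array, 13 were measured with LPS, of which LXR-DKO had 2 at least 2-fold higher and 2 lower, and 15 without LPS, of which 2 were higher and 4 lower. Over all genes 17.8% were higher and 8.76% lower with LPS, and 12.7% and 9.28% without LPS, so that these counts of higher genes lie near the share of all genes. Ly96, which encodes MD-2, had signals of 442.8 in LXR-DKO LPS, 166.3 in LXR-DKO control, 689.4 in WT LPS and 372.3 in WT control. It was higher with LPS in both genotypes, by 2.66-fold in LXR-DKO and 1.85-fold in WT, and 2.24-fold lower in LXR-DKO than in WT without LPS. The LPS receptor therefore had both of its subunits and Cd14 above the floor on every array. Cd180 and Ly86 encode the 2 chains of the RP105 complex, a Tlr4 homologue without a TIR domain. Cd180 had a log2 ratio of LXR-DKO over WT of -0.57 with LPS and -1.20 without LPS. Ly86 went the other way, at 9.44-fold higher with LPS and 9.996-fold higher without LPS. Unc93b1, which escorts the endosomal receptors, was higher in LXR-DKO at log2 ratios of 0.54 and 0.69, the first of these within the probe-set spread. Cnpy3, a folding chaperone of these receptors, was higher at 1.27 and 1.43. Hsp90b1 and Lrrc59 of the same list went the other way. Hsp90b1 stood at -1.07 with LPS and -0.40 without LPS, and Lrrc59 at -0.66 and -0.79. The proteases that cleave the endosomal receptors were lower in LXR-DKO, with Ctsb at -0.98 and -0.83, Ctss at -0.89 and -0.62 and Lgmn at -0.62 and -1.46 with and without LPS. Atp6v0d2, a subunit of the proton pump that acidifies endosomes, was the lowest of the list in LXR-DKO, at -3.23 and -3.02. Tlr5, the flagellin receptor, and Tlr12 had no signal above 57.6 on any array.

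Adaptor and proximal signalling genes had medians above 0 in LXR-DKO over WT. Of 19 measured, LXR-DKO with LPS had 4 past 2-fold upward and 1 downward, and without LPS 1 in each direction, with medians of 0.41 and 0.55. The upward count with LPS lies near the 17.8% of all genes, and 8.76% of all genes were lower. Without LPS, 12.7% of all genes were higher and 9.28% lower. Myd88, the adaptor of nearly all these receptors, had signals of 1405.8 in LXR-DKO LPS, 1684.7 in LXR-DKO control, 1187.8 in WT LPS and 1480.9 in WT control, which lie within the probe-set spread of each other between genotypes. Ikbke, a kinase of the interferon arm, was higher in LXR-DKO at 2.45 with LPS and 0.98 without LPS, and Irf5, a factor downstream of MyD88, at 1.43 and 1.54. Ikbkg, the regulatory subunit of the IkappaB kinase, was lower at -1.30 and -0.96. With LPS over control the list counted 3 of 19 genes higher in LXR-DKO and 1 of 19 in WT. The shares of all genes were 6.23% and 2.93%. The 1 gene in WT was Irf7, at log2 ratios of 3.50 in LXR-DKO and 4.39 in WT.

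Some inhibitors of the pathway were past 2-fold higher with LPS. Of 14 measured, LPS cells had 5 past 2-fold upward in LXR-DKO and 5 in WT, and 0 downward in either, with medians of 0.32 and 0.57, against 6.23% of all genes upward in LXR-DKO and 2.93% in WT. In each genotype 9 of the 14 were within 2-fold. Irak3, a kinase-dead relative of the IRAK kinases, stood at 1.74 in LXR-DKO and 1.63 in WT, and the deubiquitinase gene Tnfaip3 at 2.48 and 1.50. Between the genotypes, 2 were higher and 0 lower in LXR-DKO with LPS, and 3 higher and 2 lower without LPS. Over all genes 17.8% were higher and 8.76% lower with LPS, and 12.7% and 9.28% without LPS. These counts out of 14 lie near the shares of all genes. Sigirr, an inhibitory receptor with a TIR domain, was higher in LXR-DKO at 2.32 and 2.25.

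Markers of other cell types moved with genotype beside the receptor genes, and their part in the receptor differences was not tested. In these bulk cultures, fewer cells of a type and less RNA per cell cannot be told apart. Macrophage and monocyte markers, whose cells are rich in Tlr2, Tlr4 and Cd14, had summed signals of 35937.3 in LXR-DKO LPS, 48837 in LXR-DKO control, 40565.9 in WT LPS and 34878.2 in WT control. Of 12 measured, LXR-DKO had 5 at least 2-fold higher and 2 lower in either condition. Over all genes 17.8% were higher and 8.76% lower with LPS, and 12.7% and 9.28% without LPS. The complement genes C1qa, C1qb and C1qc, Fcgr1 and Ccr2 were higher, the first 3 with signals of at most 1.8 in WT LPS. Cd68 was lower at log2 ratios of -2.06 with LPS and -1.31 without LPS. Itgam was lower at -1.69 and -0.80, and Mrc1 at -0.93 and -2.36, with and without LPS. The monocyte and macrophage genes Csf1r, Lyz2 and Adgre1 stayed within 0.47 of 0 between genotypes. Conventional DC markers summed to 24494.5 in LXR-DKO LPS, 16017.7 in LXR-DKO control, 8177.8 in WT LPS and 7037.2 in WT control. In LXR-DKO, 9 of 12 measured were at least 2-fold higher with LPS and 8 of 11 without LPS, and none was at least 2-fold lower. The shares of all genes higher were 17.8% and 12.7%. The median log2 ratios of these markers were 3.45 and 2.68. With LPS 4 of these ratios, and without LPS 1, include a value under the floor.

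Marker transcripts of cell types outside the DC and macrophage lineages also differed in summed signal. B cell markers, whose cells express Tlr7 and Tlr9, summed to 6248.3 in LXR-DKO LPS, 3592.3 in LXR-DKO control, 454.9 in WT LPS and 518.2 in WT control, with 8, 7, 3 and 4 of 8 genes at or above the floor. Of these sums, Ighm alone gave 4119.2 in LXR-DKO LPS, 2911.2 in LXR-DKO control, 84.2 in WT LPS and 162.5 in WT control. The B cell receptor gene Cd79a had 397.7 and 114.6 in LXR-DKO LPS and control, against 1.2 and 4.9 in WT LPS and control. Cd22 went the other way, at log2 ratios of LXR-DKO over WT of -0.08 with LPS and -0.73 without LPS. Pax5 stood at 0.38 and 0.52. Neutrophil and granulocyte precursor markers summed to 26442 in LXR-DKO LPS, 26596.5 in LXR-DKO control, 15770.8 in WT LPS and 15949.2 in WT control, with 10, 11, 5 and 7 of 11 genes at or above the floor. With LPS, 10 of them were measured, 7 past 2-fold upward and 1, Mmp8, downward. Without LPS, 11 were measured, 6 upward and 1, again Mmp8, downward. Of these ratios, 5 with LPS and 4 without LPS include a value under the floor. Mmp8 stood at log2 ratios of -1.37 and -1.04. Its signals were 3769.1 in LXR-DKO LPS, 3829.7 in LXR-DKO control, 9716.4 in WT LPS and 7882 in WT control. Mmp8 and Chil3 gave most of each WT sum. Mast cell, basophil and eosinophil markers summed to 3505.9, 1979, 814.5 and 651.6 in the same order of groups, with 10, 10, 5 and 6 of 10 genes at or above the floor. Plasmacytoid DC markers, whose cells are known for Tlr7 and Tlr9, summed to 3152.9, 1532.2, 4017.9 and 1126.2, of which Bst2, itself induced by interferon, gave 1447.8, 469.7, 3509.9 and 589.7. Siglech, the defining marker of that list, had signals of 31.2 in LXR-DKO LPS, 24.6 in LXR-DKO control, 6.3 in WT LPS and 19.5 in WT control, near or under the floor. In that list, Spib had 515 and 274.9 in LXR-DKO LPS and control, against 22.3 and 26.6 in WT LPS and control. Ly6d and Pacsin1 were also past 2-fold upward in LXR-DKO in both conditions, and Tcf4 with LPS. Cox6a2 and Klk1 went the other way, within 2-fold. Cox6a2 stood at log2 ratios of -0.78 with LPS and -0.76 without LPS, and Klk1 at -0.39 and -0.67. With LPS, 8 of this list were measured, 4 of them past 2-fold upward and 1, Bst2, downward. Without LPS, 7 were measured, 3 upward and 0 downward. In each condition, 3 of these ratios include a value under the floor. The sums of B cell, neutrophil and mast cell markers were higher in LXR-DKO in both conditions.

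Tlr7, Tlr8 and Tlr13 lie on the X chromosome, and the cultures differed in sex-linked transcripts. Xist, the transcript of the inactive X chromosome, had signals of 2090.4 in LXR-DKO LPS, 2750 in LXR-DKO control, 22.7 in WT LPS and 30.8 in WT control. The Y-linked gene Eif2s3y had 384.3 and 279.6 in LXR-DKO LPS and control, against 721 and 736.6 in WT LPS and control. Uty, also Y-linked, had 128.6 and 69.7 in LXR-DKO LPS and control, against 291.1 and 300.9 in WT LPS and control. Xist was thus seen in the LXR-DKO cultures and near or under the floor in the WT cultures, while Y-linked genes were above the floor in all 4. Kdm5d, also Y-linked, had 93.2 and 56.1 in LXR-DKO LPS and control, against 98.1 and 126.2 in WT LPS and control. Between genotypes it stood at -0.07 on the log2 scale with LPS, within the spread of 0.54, and at -1.17 without LPS. Xist, Eif2s3y and Uty differed with genotype in both conditions, and Kdm5d only without LPS. Sex and genotype therefore cannot be told apart for any gene in this design.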

How the data were processed

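RNA of 4 cultures was hybridised to 1 array each. Per the labels' protocols, biotinylated cRNA was made with a manufacturer's amplification kit, and MAS5 is the program named in the submitters' processing notes; its version and settings are not given in the sources used here. The deposited intensity values are linear, and the authors had brought the arrays to 1 scale, as a mean that omits the lowest and highest 2% equalled 200.0 on each. Scaling assumes equal total brightness, so a genotype ratio is relative to it. The manufacturer's 64 control probe sets were dropped. Gene names are those of the platform annotation: 34945 of 45037 probe sets had 1 symbol, 932 several and 9160 were not listed. Probe sequences were not used, so cross-hybridisation between related receptors was not checked. RefSeq tables of GRCm38.p6 gave chromosomes and promoters.

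The floor, ratios, counts and probe-set spread were computed in Python 3.11.15 with pandas 2.3.3, and counting was tested on simulated data. All 10 members are described. Of each other list some genes are named, which are not always those with the largest ratios. Some of them were chosen after their values were seen. Members and lists were chosen with earlier results of these data known. The wording of the NF-kappaB consensus was chosen after the promoters had been seen. Alternatives were 4 scalings, 2 other floors, no floor with 16 added to the signal, the median over probe sets, and only plain probe sets, with no suffix marking shared targets. Replicates being absent, no test was made.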

Additional observations from a re-analysis of the deposited data

Results flagged for a closer look

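Tlr9 and Tlr13 had LPS ratios of opposite sign in the genotypes, and Cd14 had genotype ratios of opposite sign with and without LPS. None of these differences was tested, since each group has 1 array. The log2 ratio of LPS over control for Tlr9 was 0.39 in LXR-DKO and -0.37 in WT. For Tlr13 it was -0.37 in LXR-DKO and 0.24 in WT. For Cd14, LXR-DKO over WT stood at a log2 ratio of -0.10 with LPS and of 0.58 without LPS, and the first of these was above 0 after quantile normalization and under hybridisation control scaling.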

How the results depend on the processing

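No paired analysis was possible because each group has 1 array, and no replicate could be left out. Of the 12 member ratios past 2-fold, 6 stayed past it under every alternative that gave a value, and 11 kept their direction. The exception in direction was the difference of the Tlr1 LPS responses, -0.27 with the floor at the 75th percentile, where the dim LXR-DKO control value is raised to the floor. With that floor fewer members had a value, and counts fell. Those at least 2-fold higher with LPS in LXR-DKO numbered 1 of 5 instead of 2 of 10. Those at least 2-fold lower in LXR-DKO numbered 2 of 6 without LPS and 3 of 7 with LPS, instead of 4 of 10 in each. Those with a larger LPS response in LXR-DKO numbered 0 of 7 instead of 1 of 10. Tlr1 without LPS had no value there, as both its control signals are under that floor. Both Tlr6 calls were among those lost. Scaling to the 75th percentile gave 2 instead of 1 higher with LPS in WT, and scaling to the hybridisation controls 1 instead of 0 higher in LXR-DKO with LPS, Tlr9. For these scalings the cause was not tested. Hybridisation control scaling moved the median of all genes to 0.43 with LPS and 0.26 without LPS for LXR-DKO over WT, against 0.15 and 0.05, and turned Tlr1 and Cd14 with LPS above 0. For Tlr7 without LPS, the median over its 3 probe sets was -0.57 against -2.50. The signals of Tlr3, Tlr8, Tlr9 and the LXR-DKO control value of Tlr1 are close enough to the floor to limit what their ratios show.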
